A study of Mus musculus with 40 samples.

Results

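Atf1, Creb1 and Crem are the genes that the knockout labels of the study name. They were taken by name from a table of 55414 genes, so they are 3 of 55414, and all 3 had at least 1 TPM in each of the 22 libraries. TPM is a transcript abundance that is corrected for transcript length and adds up to one common total in every library, so levels of different genes can be set side by side within a library. Atf1 (ENSMUSG00000023027) lies on chromosome 15, Creb1 (ENSMUSG00000025958) on chromosome 1 and Crem (ENSMUSG00000063889) on chromosome 18.

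The libraries were made from mpkCCD cells, an immortalized line of mouse kidney collecting duct, and every group received the vasopressin analogue dDAVP at 0.1 nM for 72 hours on permeable supports. Unmodified control clones, labelled wild type, gave 11 libraries. The knockout labels were ATF1-KO with 5 libraries, ATF1/CREB1-KO with 3 and ATF1/CREB1/CREM-KO with 3. By their numbers they fall into 3 runs: control clones 1 to 5 with ATF1-KO, control clones 6 to 8 with ATF1/CREB1-KO, and control clones 9 to 11 with ATF1/CREB1/CREM-KO. Each knockout label is compared below with the control clones of its own run. The labels do not call the runs batches, and no source used here says if libraries sharing a knockout label come from different clones, so p-values measure the spread between these libraries only. TPM per gene cannot tell edited from intact transcripts, so that a library is a knockout is known from its label alone. The 18 samples of a rescue experiment were not analysed here.

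ATF1, CREB1 and CREM form the CREB family of leucine zipper transcription factors. They bind as dimers to the cAMP response element, are phosphorylated by protein kinase A when cAMP rises, and then recruit the coactivators CBP and EP300. CREB1 and ATF1 are known mainly as activators, whereas Crem gives both activator and repressor forms, among them the cAMP-inducible early repressor made from a promoter inside the gene. In the collecting duct, vasopressin raises cAMP in principal cells and increases Aqp2, the gene of the water channel aquaporin-2, and the study asks what these factors do in that regulation.

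The cAMP response element has the palindrome TGACGTCA as its full form and the shorter core TGACG, or CGTCA on the other strand, as its minimal form. The promoter windows of Aqp2 and of the targeted genes are shown because the factors bind this element and the levels of these genes are what the results turn on. RefSeq windows on GRCm38.p6, 250 bases before to 50 after the start of the gene, were found for Aqp2, Atf1 and Creb1, 3 of the 4 genes looked up, and not for Crem. They are written 5′ to 3′ with each core in capitals.
Aqp2 promoter, chr15:99578806-99579105, plus strand: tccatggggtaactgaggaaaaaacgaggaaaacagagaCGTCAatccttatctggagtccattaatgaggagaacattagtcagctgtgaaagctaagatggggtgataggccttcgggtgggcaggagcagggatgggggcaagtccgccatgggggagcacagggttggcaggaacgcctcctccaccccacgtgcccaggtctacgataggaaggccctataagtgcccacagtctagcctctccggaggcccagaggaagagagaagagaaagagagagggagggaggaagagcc
Atf1 promoter, chr15:100227609-100227908, plus strand: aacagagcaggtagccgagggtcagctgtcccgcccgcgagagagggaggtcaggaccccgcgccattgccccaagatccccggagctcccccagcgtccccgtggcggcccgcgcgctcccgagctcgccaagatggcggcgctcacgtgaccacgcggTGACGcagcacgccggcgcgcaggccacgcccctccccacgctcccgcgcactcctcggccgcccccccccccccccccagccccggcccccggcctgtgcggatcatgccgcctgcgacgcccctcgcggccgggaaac
Creb1 promoter, chr1:64532554-64532853, plus strand: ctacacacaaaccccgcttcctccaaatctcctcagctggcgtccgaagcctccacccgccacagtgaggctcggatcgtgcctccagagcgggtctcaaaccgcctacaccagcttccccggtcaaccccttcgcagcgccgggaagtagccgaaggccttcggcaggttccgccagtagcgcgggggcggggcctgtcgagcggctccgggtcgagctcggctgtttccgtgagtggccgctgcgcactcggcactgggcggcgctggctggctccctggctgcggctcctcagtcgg
The Aqp2 window held 1 core, CGTCA, whose first base lay 211 bases before the start. The Atf1 window held 1 core, TGACG, 90 bases before the start, and the Creb1 window held none. None of the 3 windows held TGACGTCA. Of all 32851 promoter windows of this length, searched on both strands, 20.8% held a core and 1.79% held the full palindrome, and every full palindrome holds both cores. A match describes the letters of the window only.

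The collecting duct label was checked against markers. All 4 epithelial genes and 10 of 12 principal cell genes had a mean of at least 1 TPM in every group and run, while Aqp4 and Scnn1b did not. The summed principal cell markers ranged from 999 to 5345 TPM over the libraries. Among 5 intercalated cell genes, Atp6v1b1 alone reached a mean of 1 TPM, and Atp6v1g3 was listed at 0 in all 22 libraries. Of 3 proximal tubule genes, Lrp2 was at 25.2 TPM or less and present in all 22 libraries, while Slc34a1 and Slc5a2 reached at most 0.07 and 0.24 TPM. The sum of the 3 ranged from 1.30 to 25.2 TPM over the libraries. Fibroblast, leukocyte and endothelial markers summed to at most 1.06, 3.54 and 0.52 TPM. The leukocyte sum was highest in the libraries labelled ATF1/CREB1-KO, at 0.65 to 3.54 TPM, and its part in the results of that label was not tested. Depth is unknown, since TPM does not keep it, and no pair of libraries was identical. Ribosomal protein genes, 84 in number, took 7.29% to 15.4% of TPM in the 6 libraries of run 2 and 2.73% to 4.20% in the other 16. In bulk samples such as these, fewer cells of a type and less RNA per cell cannot be told apart.

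**Figure D1:**
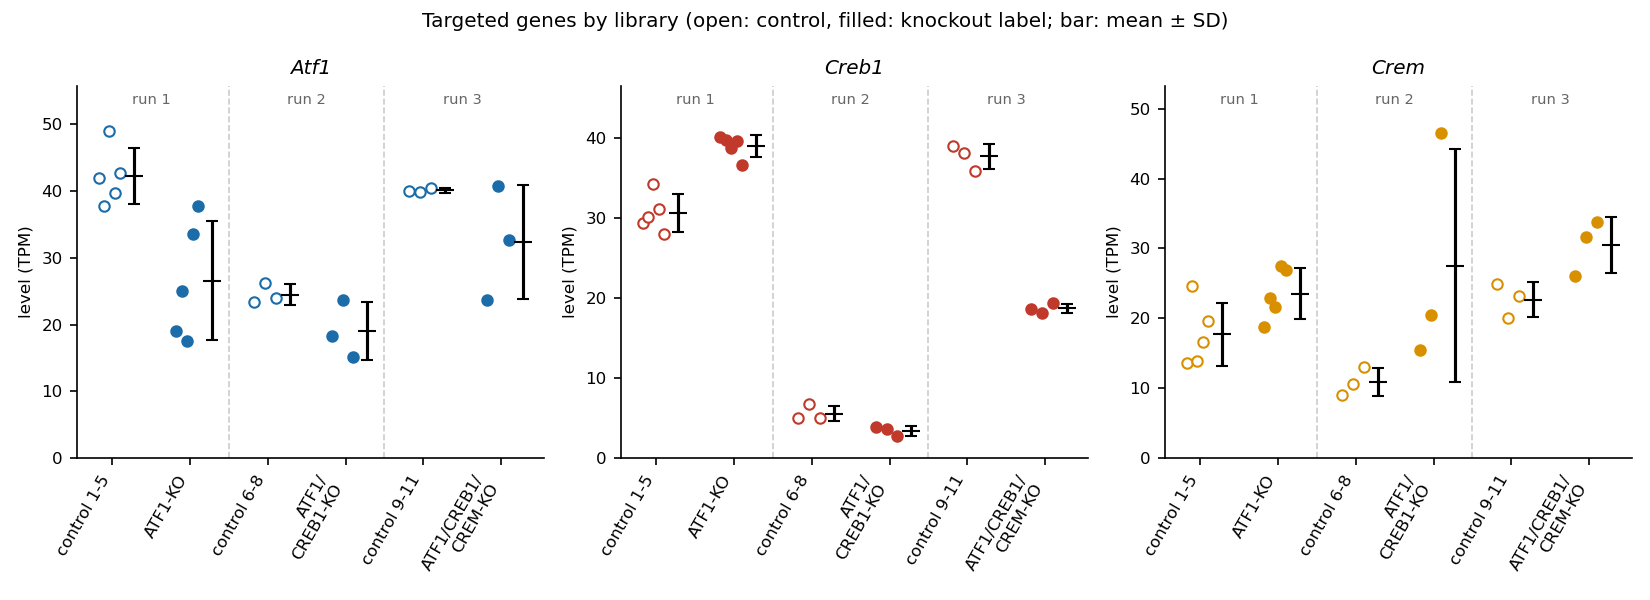
Level of Atf1, Creb1 and Crem in TPM on linear axes from 0, one point per library, with open points for control clones, filled points for knockout labels, and the mean ± SD beside each set of 5 or 3. Creb1 in control clones 6 to 8 is near 5.55 TPM, far under the 30.6 and 37.7 TPM of the other control clones, and the Crem point at 46.54 TPM is ATF1/CREB1-KO replicate 3.

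Atf1 is part of every knockout label, and its RNA was detected in all 11 libraries so labelled. In control clones 1 to 5 it was at 41.92, 37.82, 48.95, 39.70 and 42.65 TPM. In the libraries labelled ATF1-KO it was at 19.05, 25.01, 17.51, 33.53 and 37.79 TPM. All 5 lay under the lowest control clone, though replicate 5 nearly reached it, and replicates 4 and 5 lay far above the other 3. In run 2, Atf1 was at 23.32, 26.22 and 23.90 TPM in the control clones and at 18.34, 23.73 and 15.06 TPM in ATF1/CREB1-KO. In run 3 it was at 39.94, 39.78 and 40.52 TPM in the control clones and at 23.67, 40.81 and 32.68 TPM in ATF1/CREB1/CREM-KO. In both of these runs 2 of 3 knockout libraries lay under every control clone and the ranges overlapped. Knockout libraries spread more than their control clones, with a coefficient of variation of 33.4% against 10.0% in run 1, 22.99% against 6.27% in run 2 and 26.5% against 0.972% in run 3.

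Changes were tested with limma on log2(TPM + 1), with Benjamini-Hochberg adjustment over all genes averaging 1 TPM or more, and a gene is called changed where the adjusted p is under 0.05. This scale understates the change of genes of low level. The log2 change of Atf1 was -0.70 in ATF1-KO (95% interval -1.13 to -0.28, adjusted p = 0.555). It was -0.37 in ATF1/CREB1-KO (-0.88 to 0.14, adjusted p = 0.635) and -0.33 in ATF1/CREB1/CREM-KO (-0.78 to 0.11, adjusted p = 0.304). None of the 3 passed. The change in ATF1/CREB1-KO was -0.22 without its replicate 3 and -0.53 without its replicate 2, and that in ATF1/CREB1/CREM-KO was -0.13 without its replicate 1 and -0.51 without its replicate 2, none past the threshold. The background of calls was 0% of 13318 genes in ATF1-KO, 0.0715% of 12579 in ATF1/CREB1-KO and 9.17% of 13258 in ATF1/CREB1/CREM-KO. In ATF1-KO, where limma called 0 genes, 1014 had an unadjusted p under 0.05. In that comparison 0.736% of genes had every knockout library below every control clone, as Atf1 had.

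Since all 3 labels name ATF1, the own-run differences of each member were also averaged over the runs and tested by permuting labels within runs, an exact two-sided test over 100800 labelings. Atf1 was lower by this average, -0.47 on the log2 scale, with an exact permutation p of 0.000437, and 10 of 11 knockout libraries lay under the mean of their own control clones. With any 1 library left out, the average ranged from -0.53 to -0.40. Including a test for Creb1 in the CREB1-targeted libraries, 4 such tests were run, and their p-values are not adjusted for that number. They were run for the members only, so the share of all genes with such p-values is not known.

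Creb1, the family member most studied as an activator, was above its control clones under the label that does not name it and below them under both labels that do. In control clones 1 to 5 it was at 29.32, 30.12, 34.31, 31.17 and 27.99 TPM, and in ATF1-KO at 40.16, 39.79, 38.71, 39.62 and 36.67 TPM. All 5 ATF1-KO libraries lay above all 5 control clones, as was the case for 0.563% of genes. In run 2 it was at 4.98, 6.69 and 4.99 TPM in the control clones and at 3.86, 3.59 and 2.72 TPM in ATF1/CREB1-KO. In run 3 it was at 39.03, 38.17 and 35.92 TPM in the control clones and at 18.60, 18.18 and 19.35 TPM in ATF1/CREB1/CREM-KO. In both labels that name CREB1, every knockout library lay below every control clone of its run, which held for 12.4% of genes in run 2 and 20.2% in run 3. RNA of the gene remained in all 6 of them, at 61.0% of the control mean in run 2 and 49.6% in run 3.

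For Creb1 the log2 change was 0.34 in ATF1-KO (95% interval 0.19 to 0.49, adjusted p = 0.514) and -0.58 in ATF1/CREB1-KO (-1.05 to -0.10, adjusted p = 0.471). It fell in ATF1/CREB1/CREM-KO by 0.97 on the log2 scale (SE 0.091, adjusted p = 0.00305), where 9.17% of genes were called and 5.26% were called lower. Another limma fit took all 22 libraries, with a separate mean for each label and run. It kept the own-run change of Creb1 in ATF1/CREB1-KO but pooled the spread over runs, with an SE of 0.116 against 0.203. There the change passed (adjusted p = 0.00775), and 4.58% of genes were called for that label. Set against all 11 control clones, the Creb1 change in ATF1/CREB1/CREM-KO was -0.14 (adjusted p = 0.922), and those include the low values of control clones 6 to 8. Over both labels that name CREB1, the average own-run difference was -0.78, with all 6 libraries lower and an exact permutation p of 0.005, the smallest that 400 labelings allow. Over all 3 labels the average was -0.40 (exact permutation p = 0.0261), and it joins changes of opposite sign, with 6 of 11 libraries lower.

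Whether the Creb1 change differed between labels was tested in 1 limma fit over all 22 libraries. That is a test of the difference, not of opposite signs, and the rise in ATF1-KO was itself not called. The change of Creb1 in ATF1/CREB1-KO was lower than that in ATF1-KO by a log2 difference of -0.92 (95% interval -1.23 to -0.61, adjusted p = 0.00246). The change in ATF1/CREB1/CREM-KO differed from that in ATF1-KO by -1.32 (-1.62 to -1.01, adjusted p = 1.17e-05). Of all genes, 1.46% and 3.57% passed in these tests. The difference between ATF1/CREB1/CREM-KO and ATF1/CREB1-KO was -0.40 (-0.74 to -0.05, adjusted p = 0.521), where 0.188% passed. In 2 of 11795 genes tested in all runs (0.017%), Creb1 among them, every library lay above its control clones in ATF1-KO and below them in both other labels. The pattern counted was that of Creb1 itself, so its rarity is no separate support.

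Crem, the member with activator and repressor forms, was higher than in control clones on average under every label, including the label that names it. In control clones 1 to 5 it was at 13.61, 24.63, 13.95, 16.64 and 19.62 TPM, and in ATF1-KO at 18.76, 22.94, 21.62, 27.54 and 26.89 TPM. Those ranges overlapped, with 2 of 5 ATF1-KO libraries above every control clone. In run 2 it was at 9.08, 10.63 and 12.96 TPM in the control clones and at 15.49, 20.47 and 46.54 TPM in ATF1/CREB1-KO. In run 3 it was at 24.87, 19.98 and 23.13 TPM in the control clones and at 26.02, 31.61 and 33.81 TPM in ATF1/CREB1/CREM-KO. In runs 2 and 3 every knockout library lay above every control clone, which held for 6.67% and 14.5% of genes. In the libraries labelled ATF1/CREB1/CREM-KO, Crem RNA was thus higher, not lower, and gene-level TPM cannot tell activator from repressor forms.

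The log2 change of Crem was 0.41 in ATF1-KO (95% interval 0.05 to 0.77, adjusted p = 0.628), 1.12 in ATF1/CREB1-KO (0.20 to 2.04, adjusted p = 0.467) and 0.41 in ATF1/CREB1/CREM-KO (0.08 to 0.74, adjusted p = 0.116). None passed in these own-run fits. The change in ATF1/CREB1-KO passed in the fit over all 22 libraries (adjusted p = 0.0261). Pooling the spread over runs there lowered its SE from 0.39 to 0.28. In the own-run fit the change was 0.68 without replicate 3 (adjusted p = 0.162). That library also stood apart in composition, with 7.29% of TPM in ribosomal protein genes against 12.8% and 13.3% in the other 2, and the part of this in its Crem level was not tested. Without ATF1/CREB1/CREM-KO replicate 1 the change in that label was 0.52 and passed (adjusted p = 0.0217). Averaged over the 3 runs, Crem was higher by 0.65 on the log2 scale (exact permutation p = 0.000258), and all 11 knockout libraries lay above the mean of their own control clones. The share of all genes for which this holds was not computed. The average for Crem was 0.50 to 0.75 with any 1 library left out.

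Differences between labels in the changes of Atf1 and Crem passed in none of 6 tests, with adjusted p-values from 0.345 to 1. The intervals were wide: for Crem the difference of ATF1/CREB1/CREM-KO from ATF1/CREB1-KO was -0.71 (-1.54 to 0.12) and -0.27 without ATF1/CREB1-KO replicate 3, and for Atf1 it was 0.03 (-0.66 to 0.73).

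**Figure D2:**
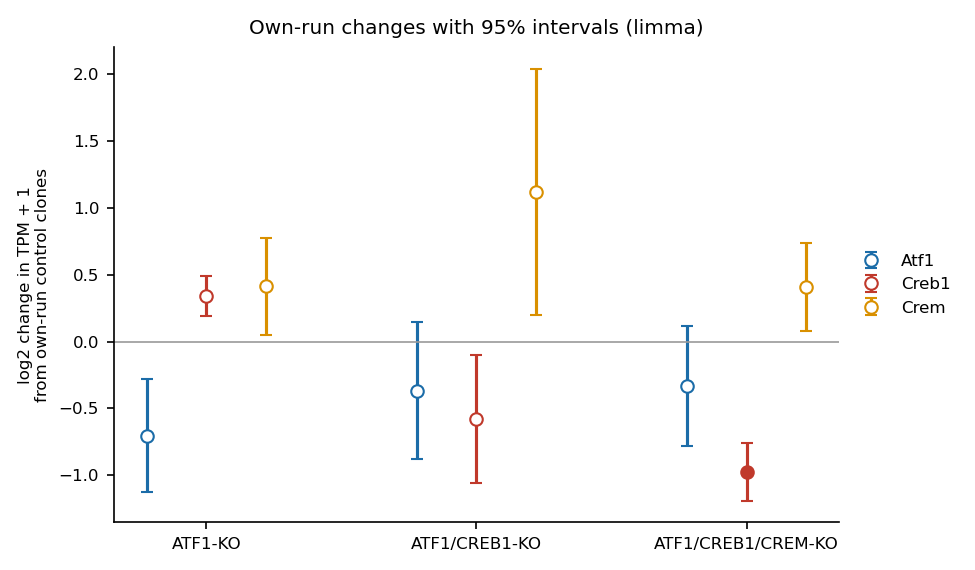
Change of Atf1, Creb1 and Crem on the log2(TPM + 1) scale against own-run control clones, as limma estimates with 95% intervals, filled where the adjusted p is under 0.05. Creb1 is at 0.34 in ATF1-KO and at -0.58 and -0.97 in the labels that name CREB1, Crem is above 0 and Atf1 below 0 in all 3, and the point of Creb1 in ATF1/CREB1/CREM-KO is the filled one.

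The order of groups by mean level differed between the members. For Atf1 it ran from 42.2 TPM in control clones 1 to 5 through 40.1 in control clones 9 to 11, 32.4 in ATF1/CREB1/CREM-KO, 26.6 in ATF1-KO and 24.5 in control clones 6 to 8 to 19.0 in ATF1/CREB1-KO, and the ranges of every neighbouring pair overlapped. For Creb1 it ran from 39.0 TPM in ATF1-KO through 37.7 in control clones 9 to 11, 30.6 in control clones 1 to 5, 18.7 in ATF1/CREB1/CREM-KO and 5.55 in control clones 6 to 8 to 3.39 in ATF1/CREB1-KO. Of these neighbours, ATF1-KO and control clones 9 to 11 alone overlapped. For Crem it ran from 30.5 TPM in ATF1/CREB1/CREM-KO through 27.5 in ATF1/CREB1-KO, 23.6 in ATF1-KO, 22.7 in control clones 9 to 11 and 17.7 in control clones 1 to 5 to 10.9 in control clones 6 to 8. Of these neighbours, control clones 1 to 5 and 6 to 8 alone had separate ranges. Levels of run 2 set against other runs carry the difference in composition given above. Among genes with at least 1 TPM in control clones 1 to 5, Atf1 stood at the 59.9 percentile, Creb1 at the 51.8 and Crem at the 39.5, so all 3 were expressed at middling levels, and Aqp2 stood at the 99.6.

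The balance of the 3 genes, given as the share of each in their summed TPM, shifted under every label. The sum itself in run 1 was 90.5 TPM ± 4.75 (SD, n = 5) for control clones and 89.1 TPM ± 11.6 (SD, n = 5) for ATF1-KO. In run 2 it was 40.9 TPM ± 3.18 (SD, n = 3) for control clones and 49.9 TPM ± 13.4 (SD, n = 3) for ATF1/CREB1-KO. These pairs overlapped. In run 3 it was 100.4 TPM ± 3.05 (SD, n = 3) for control clones and 81.6 TPM ± 11.8 (SD, n = 3) in ATF1/CREB1/CREM-KO, where all 3 libraries, at 68.3, 90.6 and 85.8 TPM, lay below the lowest control clone at 97.9 TPM. Shares and ratios are given as descriptions with no test.

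In ATF1-KO the largest mean share passed from Atf1 to Creb1. The share of Atf1 was 40.9% to 50.4% in control clones 1 to 5 and 22.5% to 37.3% in ATF1-KO, and that of Creb1 was 31.0% to 35.6% and 36.2% to 51.5%. Neither pair overlapped. The share of Crem overlapped between the groups but varied less in ATF1-KO, at 24.1%, 26.1%, 27.8%, 27.4% and 26.5%, than in the control clones, where it ran from 14.4% to 26.6%.

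In the libraries labelled ATF1/CREB1-KO, the share of Crem was higher and those of Atf1 and Creb1 lower. Its share was 24.3%, 24.4% and 31.0% in control clones 6 to 8 and 41.1%, 42.8% and 72.4% in ATF1/CREB1-KO. Atf1 went from 59.9% ± 2.65 (SD, n = 3) to 40.6% ± 14.9 (SD, n = 3), and Creb1 from 13.5% ± 1.73 (SD, n = 3) to 7.33% ± 3.01 (SD, n = 3). For each gene the knockout and control ranges were separate. Crem took the largest share in replicate 3, and Atf1 in replicates 1 and 2, at 48.7% and 49.7%.

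In ATF1/CREB1/CREM-KO the share of Creb1 was lower and that of Crem higher, while that of Atf1 overlapped. Crem held 23.95%, 20.4% and 23.2% in control clones 9 to 11 and 38.1%, 34.9% and 39.4% in the knockout libraries. Creb1 held 37.6%, 39.0% and 36.1% in the control clones and 27.2%, 20.1% and 22.5% in the knockout libraries. Atf1 averaged 39.9% in the control clones and 39.3% in the knockout libraries, a difference of -0.668 percentage points that was 1.63 without replicate 1 of the knockout label.

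**Figure D3:**
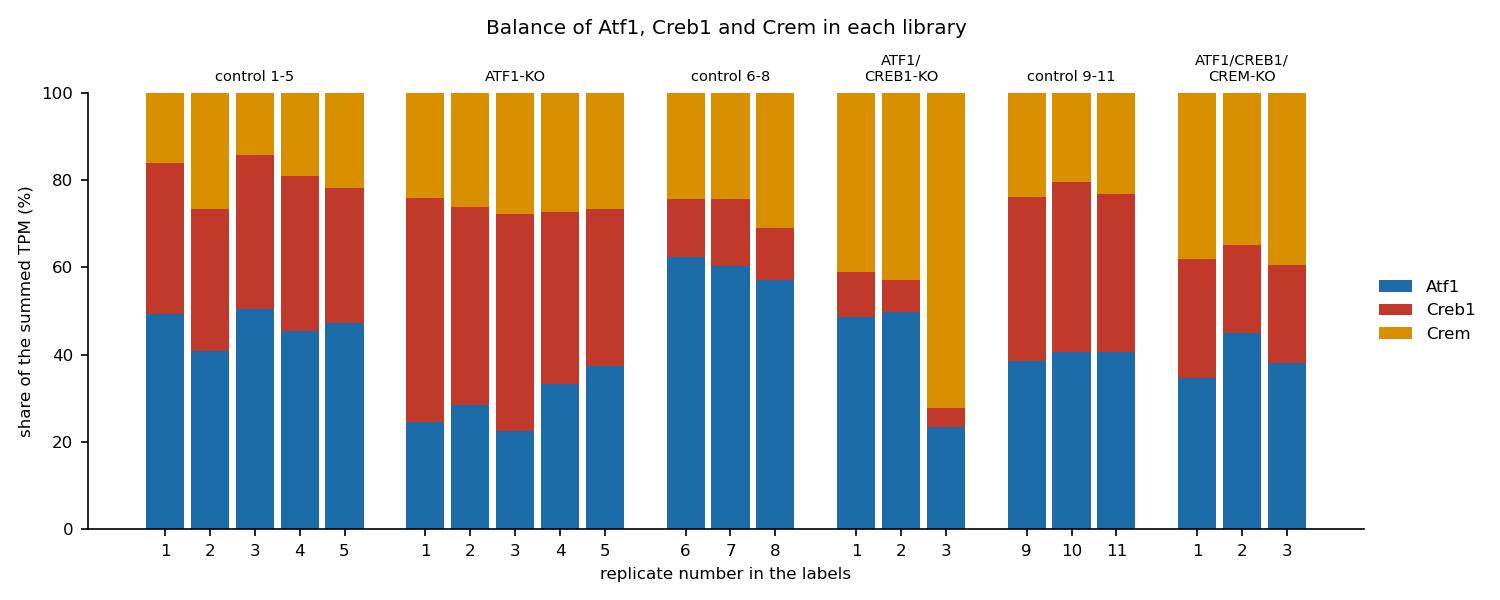
Share of Atf1, Creb1 and Crem in their summed TPM, in percent, as 1 stacked bar for each of the 22 libraries, by group and replicate number. Crem fills 34.9% to 39.4% of the bars of ATF1/CREB1/CREM-KO against 20.4% to 23.95% in their control clones, and 72.4% of the bar of ATF1/CREB1-KO replicate 3.

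Ratios between the genes cancel any scaling that all 3 share within a library. Crem over Atf1 was the ratio with separate ranges in all 3 labels, and the share of other gene pairs with this was not computed. It went from 0.428 ± 0.143 (SD, n = 5) in control clones 1 to 5 to 0.934 ± 0.197 (SD, n = 5) in ATF1-KO. In run 2 it went from 0.446 ± 0.0840 (SD, n = 3) to 0.845, 0.863 and 3.09, and in run 3 from 0.565 ± 0.0604 (SD, n = 3) to 0.970 ± 0.172 (SD, n = 3). Creb1 over Atf1 went up in ATF1-KO, from a range of 0.656 to 0.796 to one of 0.970 to 2.21. It overlapped in ATF1/CREB1-KO, at 0.226 and 0.181 on average, and was lower in ATF1/CREB1/CREM-KO, at 0.445 to 0.786 against 0.886 to 0.977. Crem over Creb1 overlapped in ATF1-KO, at means of 0.606 and 0.585. It was 4.01, 5.70 and 17.1 in ATF1/CREB1-KO against 1.59 to 2.60 in its control clones, and 1.40, 1.74 and 1.75 in ATF1/CREB1/CREM-KO against 0.523 to 0.644.

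The order of the 3 genes was the same in all control clones of a run and mixed under the labels. In all 8 control clones of runs 1 and 3, Atf1 exceeded Creb1 and Creb1 exceeded Crem, whereas in all 3 of run 2 Crem stood above Creb1. Creb1 was the highest of the 3 in 4 of 5 libraries labelled ATF1-KO and in no control clone. Crem was the highest in 1 of 3 libraries labelled ATF1/CREB1-KO and in 2 of 3 labelled ATF1/CREB1/CREM-KO. Creb1 was the lowest of the 3 genes in every library of both these labels, and also in every one of control clones 6 to 8.

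Aqp2 was set against each member library by library. In ATF1-KO it was at 1773, 1199, 2351, 1084 and 2123 TPM, so the 2 libraries with the least Atf1, replicates 3 and 1, had 2351 and 1773 TPM of Aqp2, while replicate 5, with the most Atf1, stood between them. In ATF1/CREB1/CREM-KO Aqp2 was at 15.1, 16.1 and 15.3 TPM, while Atf1 ranged from 23.67 to 40.81 TPM in the same libraries. Their Atf1 ran from under every control clone of the run to above every one. The label names ATF1, and TPM cannot tell edited from intact transcripts. The part of Atf1 in the Aqp2 level of these libraries was not tested. Creb1 in ATF1/CREB1/CREM-KO was at 18.18 to 19.35 TPM. In control clones 9 to 11, of the same run, Creb1 was at 35.92 to 39.03 TPM and Aqp2 at 1627, 641 and 2279 TPM. In control clones 6 to 8, Creb1 was at 4.98 to 6.69 TPM and Aqp2 at 855, 379 and 1029 TPM. Levels of run 2 set beside those of run 3 carry the difference in composition given above.

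Over the 10 libraries of run 1, Aqp2 and Atf1 had a Pearson r of -0.587 (permutation p = 0.0754) and a Spearman rho of -0.588 (permutation p = 0.0814) on log2(TPM + 1). The r was -0.079 without ATF1-KO replicates 1 and 3, the 2 libraries farthest from the median of Atf1. Leaving them out also narrows the range of Atf1. Creb1 gave an r of 0.379 (permutation p = 0.275) and Crem 0.457 (permutation p = 0.183) in that run. These run 1 values join both groups and so carry the difference between them. Within control clones 1 to 5 and within ATF1-KO, 5 libraries each and as descriptions, r was -0.015 and -0.351 for Atf1. It was -0.531 and -0.580 for Creb1, of opposite sign to the joined value, and 0.577 and -0.326 for Crem. Over all 22 libraries, each centred on the mean of its label and run, r was -0.164 for Atf1 (permutation p = 0.411), -0.449 for Creb1 (permutation p = 0.0552) and 0.090 for Crem (permutation p = 0.597). The value for Creb1 was -0.083 under median-ratio scaling, which rescales libraries to the median gene. In run 2, over 6 libraries, r was 0.064, 0.042 and -0.326 in the order Atf1, Creb1 and Crem, with exact permutation p-values of 0.910, 0.942 and 0.553. Of the 9 relations, with Pearson and Spearman adjusted together by Benjamini-Hochberg, the smallest adjusted p was 0.366. Run 3 gave no value, since Aqp2 splits it into 2 sets of 3.

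**Figure D4:**
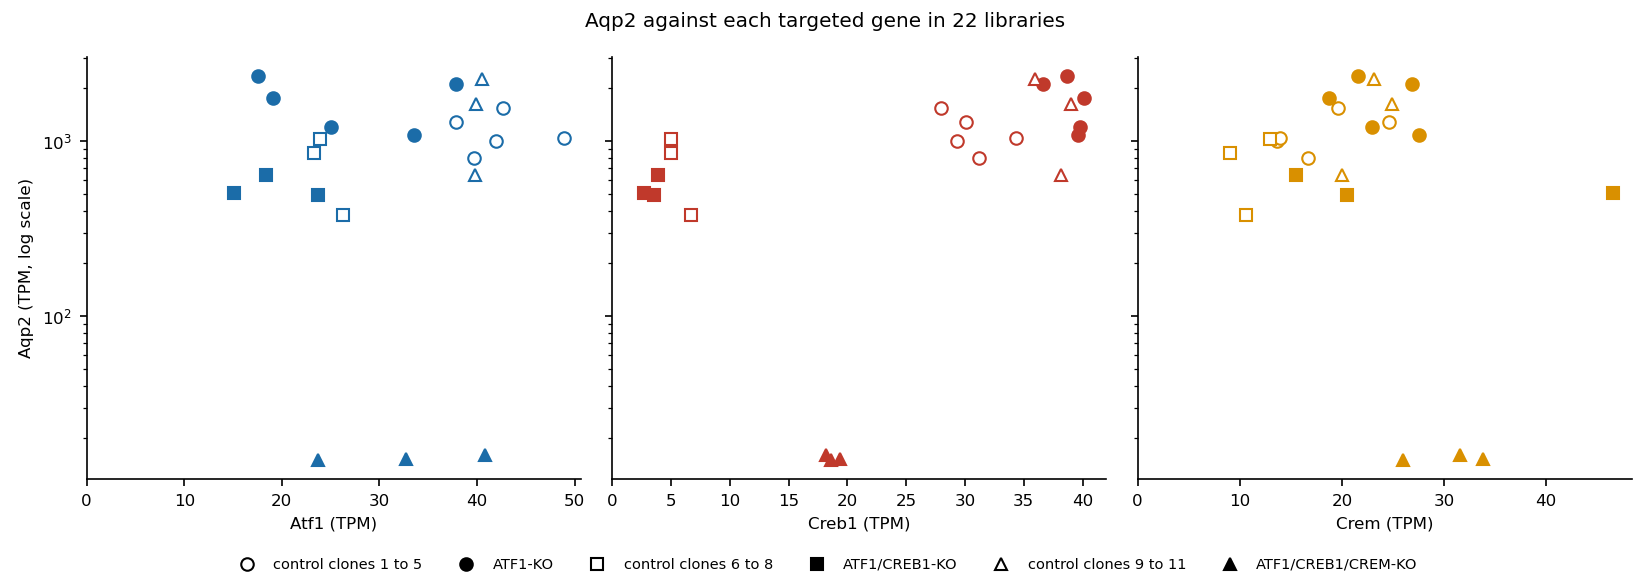
Aqp2 in TPM on a log axis against Atf1, Creb1 and Crem in TPM on linear axes, one point per library, open for control clones and filled for knockout labels, with circles, squares and triangles for runs 1, 2 and 3. The 3 points of ATF1/CREB1/CREM-KO lie at 15.1 to 16.1 TPM of Aqp2 and 23.67 to 40.81 TPM of Atf1, and the squares lie at the lowest Creb1.

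The genes whose pattern was most like that of each member were found by Pearson r over the 22 libraries, on log2(TPM + 1) minus the average own-run control clone, among 13295 genes. These values are descriptions, and the points share runs and labels. For Creb1 they were Nemp2 (r = 0.962), a nuclear envelope membrane protein gene, Pdpr (0.938), of the pyruvate dehydrogenase phosphatase, and Znrd2 (0.934). In control clones 9 to 11 Nemp2 had 16.2 TPM ± 1.12 (SD, n = 3), and in ATF1/CREB1/CREM-KO it had 9.22 TPM ± 0.648 (SD, n = 3). Pdpr was at 13.0 TPM ± 1.91 (SD, n = 3) and 3.83 TPM ± 0.241 (SD, n = 3) in the same groups. Both lay below every control clone there, as did 20.2% of all genes, and in ATF1/CREB1-KO too, as did 12.4%. In ATF1-KO both overlapped the control clones, which Creb1 did not. The 3 genes were chosen for likeness over these same libraries, so a pattern shared with Creb1 is no separate support.

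**Figure D5:**
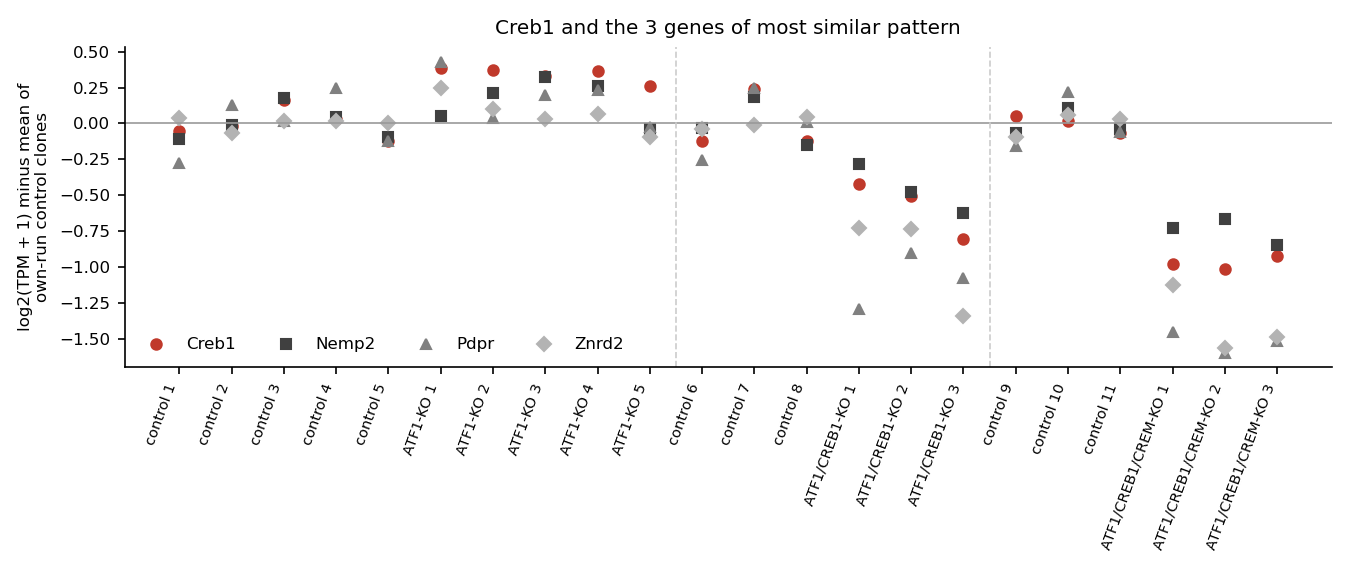
Level of Creb1, Nemp2, Pdpr and Znrd2 in each of the 22 libraries as log2(TPM + 1) minus the average own-run control clone, with dashed lines between runs. All 4 genes lie below 0 in the 6 libraries whose label names CREB1, with Creb1 lower in the 3 libraries of ATF1/CREB1/CREM-KO than in the 3 of ATF1/CREB1-KO. Nemp2, Pdpr and Znrd2 were chosen for likeness to Creb1 over these same libraries.

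For Atf1 the most similar genes were Ehhadh (r = 0.848), a peroxisomal enzyme of fatty acid oxidation, Itpr1 (0.748), an inositol trisphosphate receptor, and Anp32a (0.741). Ehhadh was at 2.59, 2.73, 2.48, 1.36 and 3.29 TPM in control clones 1 to 5 and at 0.00, 0.03, 0.31, 2.81 and 2.64 TPM in ATF1-KO replicates 1 to 5. The split of replicates 1 to 3 from 4 and 5 was also seen for Atf1. Ehhadh was chosen for its likeness over these same libraries, so a shared pattern is no separate support. In ATF1/CREB1-KO Ehhadh was at 0.00, 0.37 and 0.30 TPM, lowest in replicate 1, while Atf1 was lowest in replicate 3. In ATF1/CREB1/CREM-KO Ehhadh was listed at 0 in replicate 1, the library with the least Atf1, and at 3.12 and 2.33 TPM in the other 2. For Crem the most similar genes were Ippk (0.894), an inositol phosphate kinase, Hs3st1 (0.879), a heparan sulfate sulfotransferase, and Fam110a (0.877). Hs3st1 was at 15.77, 17.42 and 48.66 TPM in ATF1/CREB1-KO, highest in replicate 3 as Crem was, and it too was chosen for likeness over these libraries. In ATF1/CREB1/CREM-KO, Ippk lay above every control clone, as Crem did, with a log2 change of 0.19. Hs3st1 and Fam110a overlapped the control clones there, with changes of 0.07 and 0.01. The members were unlike each other on this measure, at -0.07 for Atf1 and Creb1, -0.33 for Atf1 and Crem, and -0.41 for Creb1 and Crem. With Aqp2 it was 0.786 for Creb1, which placed Aqp2 at rank 296 of 13295 genes, -0.005 for Atf1 and -0.095 for Crem. Aqp2 sets the 3 libraries of ATF1/CREB1/CREM-KO far apart from the others, and without them, over 19 libraries, the values were 0.328 for Creb1, -0.374 for Atf1 and -0.046 for Crem, a choice made after seeing the data.

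The other genes of the path from the vasopressin receptor to the CREB factors were called about as often as genes at large. Of 26 genes of that path, 24, 23 and 23 could be tested in the 3 labels in order, and 0, 0 and 2 were called, both lower, beside 0%, 0.0715% and 9.17% of all genes. Their median log2 changes were 0.02, -0.22 and -0.18, beside -0.00, -0.03 and -0.05 over all genes tested. An unadjusted p under 0.05 was found for 2, 2 and 5 of them, beside 7.61%, 9.53% and 27% of all genes. In the fit over all 22 libraries, 0, 1 and 2 were called, beside 4.58% of all genes in ATF1/CREB1-KO and 8.02% in ATF1/CREB1/CREM-KO. The 1 in ATF1/CREB1-KO was Pde4b, with a log2 change of -0.82 (adjusted p = 0.0155, and 0.371 in the own-run fit). Pde4b, a phosphodiesterase that degrades cAMP, fell in ATF1/CREB1/CREM-KO by 4.47 on the log2 scale (SE 0.17, adjusted p = 4.13e-04). It was at 32.62, 30.12 and 29.95 TPM in control clones 9 to 11 and at 0.69, 0.39 and 0.26 TPM in the knockout libraries. Prkacb, a catalytic subunit of protein kinase A, fell there by 0.71 (SE 0.11, adjusted p = 0.0158), from 53.8 TPM ± 4.47 (SD, n = 3) to 32.6 TPM ± 3.47 (SD, n = 3). The coactivator genes Crebbp, Ep300, Crtc1, Crtc2 and Crtc3 were not called in any label in either fit.

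Of 17 other ATF and CREB-like factors, 15, 14 and 15 were tested and 0, 0 and 1 called, the last beside 9.17% of all genes. Creb3l4, a membrane-bound relative, fell in ATF1/CREB1/CREM-KO by 0.82 on the log2 scale (SE 0.15, adjusted p = 0.0244), from 6.60 TPM ± 0.491 (SD, n = 3) to 3.30 TPM ± 0.278 (SD, n = 3). In the fit over all 22 libraries Creb3l4 was not called (adjusted p = 0.0785). Atf6, of the unfolded protein response, was called there in ATF1/CREB1-KO at -0.42 (adjusted p = 0.0193, and 0.525 in the own-run fit). Atf6 was named after its values were seen. Of the nearest genes with at least 1 TPM, on both sides of Atf1 and Creb1 and on 1 side of Crem, 14, 15 and 14 were tested in the 3 labels and 0, 0 and 1 called, again beside 9.17% of all genes in the last. The 1 was Fastkd2, of mitochondrial RNA processing and near Creb1. It fell by 0.46 in ATF1/CREB1/CREM-KO (adjusted p = 0.0277), and in the fit over all 22 libraries its adjusted p was 0.0562. Cul2, a ubiquitin ligase scaffold gene next to Crem, had a log2 change of 0.43 there (adjusted p = 0.0875) and of 0.55 in ATF1/CREB1-KO (adjusted p = 0.596). It was not called in any label in either fit. A gene model on the strand opposite to Crem, Gm6225, was at a mean of 0.42 TPM, and whether reads were counted by strand is not given in the sources used here.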

How the data were processed

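RNA was sequenced from 22 libraries made with a SMARTer V4 kit and Nextera XT, per the labels' protocols. STAR and RSEM are named in the submitters' processing notes, and the genome build and annotation are not given in the sources used here. The deposited values are TPM per gene, read as such because every column sums to the same total. The planned count test could not be used on TPM, so limma 3.58.1 (R 4.3.3, lmFit and eBayes with a variance trend) was run on log2(TPM + 1) over genes averaging at least 1 TPM, with Benjamini-Hochberg adjustment and a threshold of 0.05. Only the libraries of a run entered its fit, and differences between labels came from 1 fit over all 22. Permutation tests of single values were exact, or used 100000 resamples for correlations over 10 or more libraries. The scripts were tested on simulated data. As an alternative to the own-run fits, a fit over all 22 libraries, with a separate mean for each label and run, pooled the spread over runs. Other alternatives were a pseudocount of 0.1, no filter beyond a mean above 0, median-ratio scaling, all 11 control clones, the replicate block and leaving out each library. The last was added for label differences and permutation tests after seeing the data, as was the likeness to Aqp2.

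Members and gene lists were chosen with earlier results of these data known. Genes named beside them were list genes or neighbours that were called, and the 3 genes most like each member. Outside this rule, the neighbour Cul2 was named though it was not called in any label. Of the 55414 identifiers, 52081 were found in GENCODE M21 on GRCm38, used for order and neighbours only. Identical replicate numbers do not pair samples here: the closing section gives the check.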

Additional observations from a re-analysis of the deposited data

Results flagged for a closer look

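The change of Creb1 against own-run control clones differed between labels in a direct test of the difference, limma over all 22 libraries with Benjamini-Hochberg adjustment. ATF1/CREB1-KO minus ATF1-KO was -0.92 on the log2 scale (adjusted p = 0.00246), and with any 1 library left out it was -0.998 to -0.80, with adjusted p-values of 0.00201 to 0.0116. ATF1/CREB1/CREM-KO minus ATF1-KO was -1.32 (adjusted p = 1.17e-05), and with any 1 library left out -1.36 to -1.29. In ATF1-KO 5 of 5 libraries were above every control clone of the run, and in the other labels 3 of 3 were below. The labels differ in run as well as in genotype, and these cannot be told apart beyond the own-run control clones used. No single library stood far from the others in 14 sets of 5 libraries examined (Dixon's criterion). Only run 1 has groups of 5, so the libraries of runs 2 and 3 were not examined. Among those was ATF1/CREB1-KO replicate 3, with Crem at 46.54 TPM against 15.49 and 20.47 TPM in replicates 1 and 2.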

How the results depend on the processing

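Most member changes kept direction and side of the threshold. Against all 11 control clones, where the median change of all genes was 0.36, -0.96 and 0.28 in the 3 labels in order, ATF1/CREB1-KO gave -0.90 for Atf1 and -2.31 for Creb1 (both limma adjusted p = 0.0446), and ATF1/CREB1/CREM-KO gave -0.14 for Creb1 (adjusted p = 0.922). The fit over all 22 libraries, with spread pooled over runs, kept the ATF1/CREB1-KO changes at -0.58 for Creb1 (adjusted p = 0.00775) and 1.12 for Crem (adjusted p = 0.0261). Leaving out 1 library gave 0.33 to 0.52 for Crem in ATF1/CREB1/CREM-KO, past the threshold without its replicate 1, and -3.56 to 1.63 percentage points for the Atf1 share there. The Crem difference of ATF1/CREB1/CREM-KO from ATF1-KO was -0.00 at first, 0.0543 under median-ratio scaling and -0.13 to 0.10 with 1 library left out, and the Atf1 difference of ATF1/CREB1/CREM-KO from ATF1/CREB1-KO was -0.14 to 0.24.

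Counts of called genes varied more. For ATF1-KO they were 0 to 1 with 1 library left out. For ATF1/CREB1-KO the 9 became 4260 against all control clones, 609 in the fit over all 22 libraries, 18 under median-ratio scaling and 0 with no filter. With 1 library left out they became 0 to 60 (0 without knockout replicate 2, 60 without 3). For ATF1/CREB1/CREM-KO the 1216 became 137 against all control clones, 710 with no filter, and 185 (without control clone 9) to 3317 (without knockout replicate 1) with 1 library left out. Relations with Aqp2 that turned were Atf1 over 22 libraries, 0.00673 under median-ratio scaling, and, without the 2 farthest libraries of run 2 (n = 4), Atf1 at -0.725 and Crem at 0.042. In that last setting Creb1 reached 0.960 (exact permutation p = 0.0417). This p is not adjusted and is the smallest that 4 libraries allow, and the exact permutation p of Spearman's rho was 0.0833. Beyond fewer samples or genes, the cause was not tested.

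Control clones 1 to 5 and ATF1-KO share replicate numbers. Deviations of same-numbered libraries correlated at -0.103 to 0.084, none of the 5 over 0.1, and 3 of 10 libraries correlated best with their own number. With the replicate block, 0 genes were called, and the changes were -0.70 for Atf1 (adjusted p = 0.688), 0.34 for Creb1 (0.674) and 0.41 for Crem (0.707). TPM keeps no depth, so counting error is not known.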
